A study of Homo sapiens with 18 samples.

Results

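The 36 genes described here encode nuclear subunits of respiratory complex I, the NADH dehydrogenase of the mitochondrial inner membrane. They were taken from the gene table by symbol, with assembly factors left out, and make up 36 of its 58870 genes. All 36 passed the filter on low counts and were tested with 17743 genes in all.

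Polyadenylated RNA was sequenced from HEK293T cells, an established line of human embryonic kidney origin, in 6 groups of 3 libraries. Each group received a plasmid with 1 of 3 base editors, which join a deaminase to a Cas9 nickase and rewrite single bases where a guide RNA directs them. The editors were ABE8e-nSaCas9 (SaABE), ABE8e-nSpCas9 (SpABE) and evoCDA1-nSpCas9 (SpCBE), where ABE8e is an adenine deaminase and evoCDA1 a cytosine deaminase. Each was paired with a guide to a splice site of exon-7 in NRF1 or with a guide to an intergenic site. The comparison asked how the RNA of these genes changed when the exon was targeted for skipping. What all groups shared was the transfection of 750000 cells, puromycin selection for 48 hours and lysis at 72 hours, so that the intergenic-guide cells also carried an editor. The RNA came from selected populations and not from clones, and the share of edited cells in each library was not measured here.

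Complex I passes electrons from NADH to ubiquinone and pumps protons. Its peripheral arm, in the matrix, holds the flavin and the iron-sulfur clusters, and its membrane arm holds the proton pumps. The core subunits carry out catalysis, and 7 of them, all in the membrane arm, are encoded by the mitochondrial genome. Accessory subunits surround this core and are needed to assemble it or keep it stable. NRF1, nuclear respiratory factor 1, is a transcription factor that binds GC-rich elements in promoters, and several genes of respiratory chain subunits are among its known targets.

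The elements shown first are those that match the letters usually given for the NRF1 motif in promoters of the subunits whose RNA fell. Promoters came from RefSeq (GRCh38.p14) as windows from 250 bases before to 50 bases after the start, and 32 of the 36 genes were matched by symbol. NDUFB9, NDUFC2, NDUFB5 and NDUFS5 were the other members. Words of 10 bases were searched on both strands: GCGC, then AT, AC or GT, then GCGC again. The word with AT is its own reverse complement, and those with AC and GT are reverse complements of each other. Capitals mark the match, and each run reads 5′ to 3′ on the strand of the gene. The following 3 promoters held an exact match, and the match began 4, 159 and 98 bases before the start, respectively. They lie at chr9:122159749-122159808 (minus strand), chr3:120596152-120596211 (plus strand) and chr19:5903854-5903913 (minus strand).
NDUFA8: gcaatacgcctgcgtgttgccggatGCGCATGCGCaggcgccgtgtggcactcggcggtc
NDUFB4: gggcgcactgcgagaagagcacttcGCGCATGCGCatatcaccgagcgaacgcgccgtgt
NDUFA11: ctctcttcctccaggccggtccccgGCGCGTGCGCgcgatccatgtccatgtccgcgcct

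A further 4 subunits whose RNA fell had a match with 1 mismatch and no exact match. They are shown because they differ from the words above by 1 letter each. The runs lie at chr10:100529868-100529897 (minus strand), chr12:4649009-4649068 (plus strand), chr21:42893255-42893314 (plus strand) and chr5:1801336-1801395 (plus strand). RefSeq lists more than 1 start for NDUFB8, and its match began 16 bases before 1 of them and 36 bases after another.
NDUFB8: acaggcctttGCGCATGTGCagaagggaaa
NDUFA9: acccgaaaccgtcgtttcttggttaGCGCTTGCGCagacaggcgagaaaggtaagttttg
NDUFV3: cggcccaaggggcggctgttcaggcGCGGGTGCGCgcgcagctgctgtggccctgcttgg
NDUFS6: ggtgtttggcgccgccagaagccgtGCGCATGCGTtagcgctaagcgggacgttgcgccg

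An exact match was also found in 2 members whose RNA did not pass the test, NDUFA12 and NDUFA3. They are printed as exact matches in promoters of genes that did not pass. Both hold the word with AC, the reverse complement of the GT word of NDUFA11. The AT word of NDUFA8 and NDUFB4 was not found in either. The NDUFA12 run lies at chr12:95003779-95003838 (minus strand) and that of NDUFA3, which had a second exact match, at chr19:54102660-54102719 (plus strand).
NDUFA12: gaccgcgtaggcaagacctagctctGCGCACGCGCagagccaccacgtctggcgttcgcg
NDUFA3: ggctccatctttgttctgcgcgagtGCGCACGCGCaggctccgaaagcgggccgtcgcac

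Libraries held 28101094 to 40687447 estimated counts. No member had fewer than 724 counts in any library. The HEK293T markers LIN28B, NEFM and VIM were well above 0 in each library, while PAX2 stood at 1.23 to 3.63 CPM. The blood markers PTPRC, CD3E and HBB and the fibroblast markers COL1A2 and DCN had medians at or near 0, and COL1A1 reached 21.6 CPM. NRF1 itself stood at 28.5 ± 3.19 CPM under the intergenic guide and was higher, at 39.7 ± 2.39 CPM, under the NRF1 guide (SD over 9 libraries each), and a gene count does not measure how often exon-7 was skipped. PUDP, ANKRD26 and YEATS4, which the study treated as NRF1 targets, had log2 fold changes of -1.44, -1.59 and -1.56.

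Without the NRF1 guide, the members spanned a wide range of levels. CPM are counts scaled by TMM to a common library size, and to compare genes they were divided by the length in kb of the canonical transcript. NDUFA1, a small membrane subunit encoded on chromosome X, was the highest per length, at 229 ± 9.05 CPM per kb (SD, n = 9 intergenic-guide libraries). NDUFB9, at 226 ± 15.2, NDUFS5, at 220 ± 11.6, and NDUFB10, at 214 ± 8.93 CPM per kb, followed, and neighbours in this order lay within 1 SD of each other. NDUFV3 was the lowest at 8.56 ± 0.58 CPM per kb, next to NDUFA9 at 8.62 ± 0.43. The median member stood at 88.4 CPM per kb. The canonical transcripts of NDUFA9 and NDUFV3 are 8356 and 5725 bases long, against 421 bases for NDUFA1. The order per length thus rests on these annotated lengths. Before division by length, mean levels ran from 24.3 CPM for NDUFS4 to 156 CPM for NDUFB9. NDUFS1 had 144 CPM but 12.3 CPM per kb, with a canonical transcript of 11660 bases. Which transcripts the cells expressed was not tested. The members' coefficients of variation over the 9 libraries ran from 1.52% for NDUFV1 to 12.1% for NDUFA7, with a median of 5.74%.

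**Figure D1:**
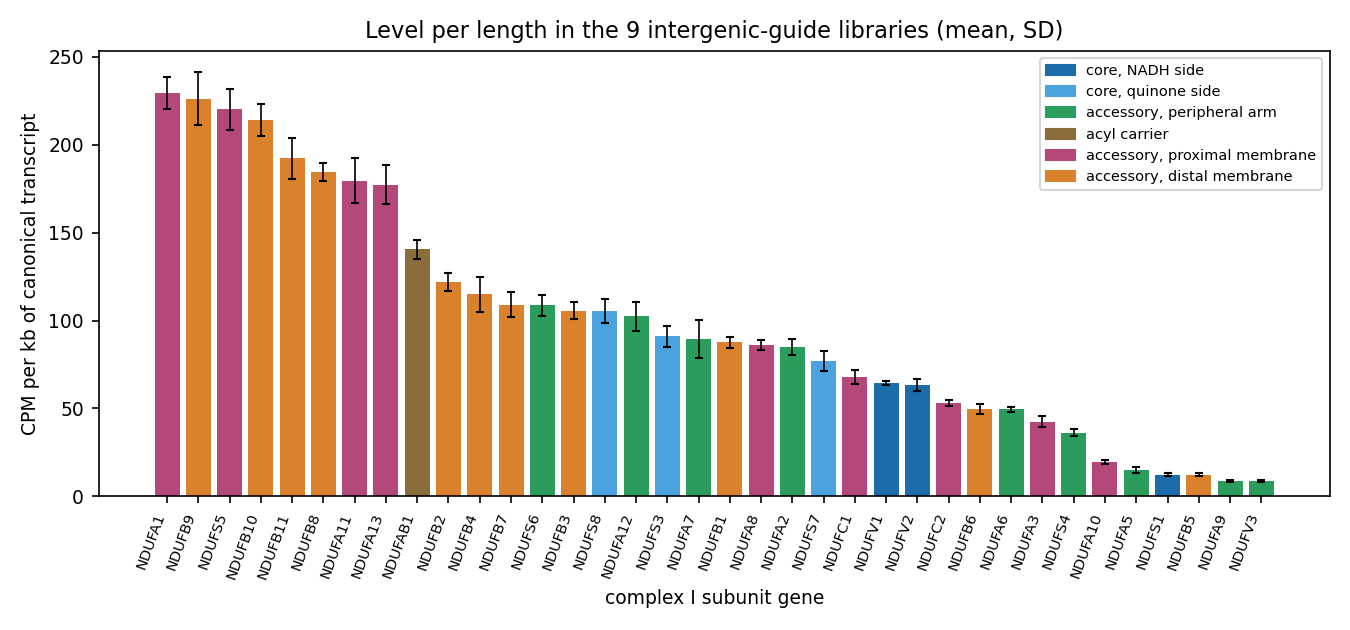
Level per length of the 36 subunits in the 9 intergenic-guide libraries, in CPM per kb of canonical transcript. Bars are means, lines are 1 SD and colours give the place in the complex, and levels run from 229 for NDUFA1 to 8.56 for NDUFV3.

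Over all 3 editors, most subunit RNAs rose slightly with the NRF1 guide and a few fell, 2 of them strongly. At an adjusted p under 0.05 by edgeR's quasi-likelihood test, 20 of the 36 were higher, 8 were lower and 8 did not pass. Among all genes tested, 20.6% were higher and 18.8% lower at this threshold. The 36 log2 fold changes ran from -0.82 to 0.20 with a median of 0.08, and the median of all genes tested was 0.01. Adding the study's fold threshold of 0.5 on the log2 scale left 2 members called lower, NDUFA8 and NDUFB8, and 0 called higher (1.13% of all genes were called higher and 4.37% lower). All rises of the members were thus below that threshold. When every NRF1-guide library was set against every intergenic-guide library of the same editor, 7 members were higher without overlap in any editor and 4 were lower. For all genes these shares were 6.24% and 8.99%.

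**Figure D2:**
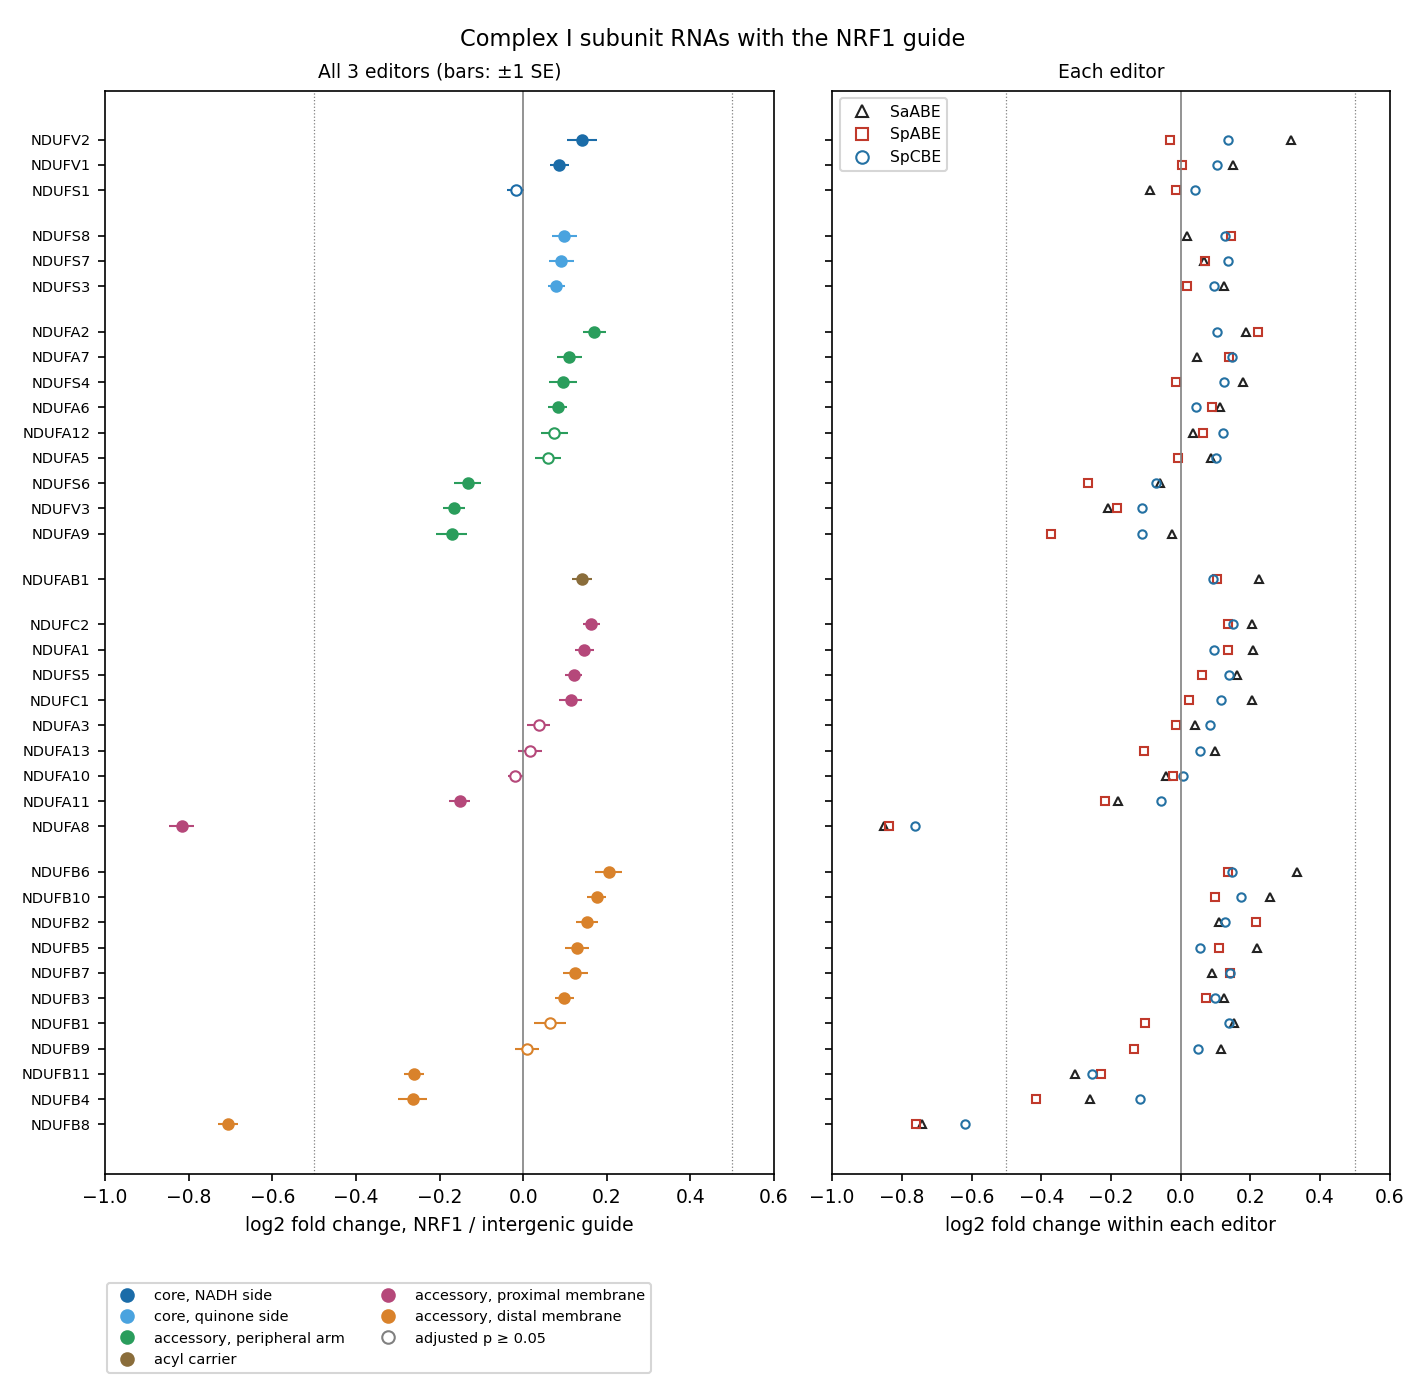
Log2 fold change of each subunit, NRF1 guide over intergenic guide, over all 3 editors with 1 SE (left) and within each editor (right), ordered by place in the complex. Filled points passed an adjusted p under 0.05 by edgeR and dotted lines mark the fold threshold, which NDUFA8 and NDUFB8 alone exceeded.

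NDUFA8, a disulfide-bonded subunit of the membrane arm on the intermembrane-space side, fell the most. Its gene lies on chromosome 9 from 122144058 to 122159779 (hg38, minus strand). With SaABE, the intergenic-guide libraries had 71.7, 65.3 and 69.4 CPM and the NRF1-guide libraries 37.5, 39.0 and 37.9 CPM. With SpABE, the values were 68.7, 69.2 and 68.9 against 36.4, 40.8 and 38.6 CPM. The SpCBE libraries had 66.1, 72.1 and 71.6 against 44.3, 38.9 and 40.3 CPM. All 9 NRF1-guide libraries therefore lay below all 9 intergenic-guide libraries. The log2 fold change was -0.82 (SE 0.03, adjusted p = 6.1e-17 by edgeR), which is 0.568 of the intergenic level, and the editors' own values were -0.85, -0.84 and -0.76. The exact match printed above sits at the start of this gene. MORN5, which starts beside NDUFA8 on the other strand, had 0.186 CPM and was not tested.

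NDUFB8, a distal membrane subunit with a single membrane span, was the other called member. It lies on chromosome 10 from 100523740 to 100530000 (minus strand). SaABE libraries had 128, 131 and 128 CPM under the intergenic guide, and 75.1, 79.1 and 76.9 CPM under the NRF1 guide. In SpABE they had 121, 125 and 121 against 71.6, 75.3 and 70.2 CPM. For SpCBE they were 122, 126 and 124 against 83.7, 79.4 and 79.5 CPM. Here too the 9 libraries of each guide did not overlap. The log2 fold change was -0.71 (SE 0.02, adjusted p = 9.1e-18 by edgeR), or 0.613 of the intergenic level, with -0.74, -0.76 and -0.62 in SaABE, SpABE and SpCBE. NDUFB8 shares 675 exon bases on the same strand with AL133352.1, a protein-coding model, and all its estimated counts were not whole numbers. AL133352.1 moved from 4.41 to 2.62 CPM (log2 fold change -0.74), and how reads were shared between these genes was not tested. HIF1AN, which overlaps NDUFB8 on the opposite strand, had a log2 fold change of 0.02 (adjusted p = 0.54 by edgeR).

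The next largest falls were of NDUFB4 and NDUFB11, both accessory subunits of the distal membrane arm. NDUFB4 had 64.9, 71.4 and 69.5 CPM in the SaABE intergenic group and 58.1, 56.1 and 57.6 CPM in the SaABE NRF1 group. With SpABE it had 79.7, 83.8 and 83.7 against 61.7, 62.8 and 61.0 CPM. In SpCBE the values were 70.3, 75.0 and 75.6 against 69.1, 63.4 and 70.9 CPM. The guides overlapped in SpCBE and in neither adenine editor. Its log2 fold change over all 3 editors was -0.26 (SE 0.04, adjusted p = 1.8e-06 by edgeR).

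NDUFB11, encoded on chromosome X, had 125, 114 and 121 against 98.2, 98.8 and 95.1 CPM in SaABE. It had 106, 111 and 115 against 92.6, 92.1 and 99.2 CPM in SpABE. The SpCBE values were 104, 108 and 108 against 89.6, 88.7 and 90.9 CPM. No NRF1-guide library reached the intergenic level of any editor. The log2 fold change was -0.26 (SE 0.02, adjusted p = 1.6e-09 by edgeR). NDUFB11 was the 1 member among the 8 lower ones whose promoter held no match with up to 1 mismatch.

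NDUFA9, which sits where the peripheral arm meets the membrane arm, was the fifth. Its SaABE libraries had 67.8, 68.6 and 67.7 CPM under the intergenic guide, and 68.7, 65.3 and 66.5 CPM under the NRF1 guide. SpABE gave 76.0, 74.7 and 77.8 against 56.6, 60.3 and 59.5 CPM. SpCBE gave 71.7, 71.9 and 72.2 against 67.7, 63.9 and 68.3 CPM. The guides overlapped in SaABE and were well apart in SpABE. Its log2 fold change across the editors was -0.17 (SE 0.04, adjusted p = 0.00059 by edgeR). AKAP3, on the other strand beside its start, had a log2 fold change of -1.14 from a level of 3.01 CPM.

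**Figure D3:**
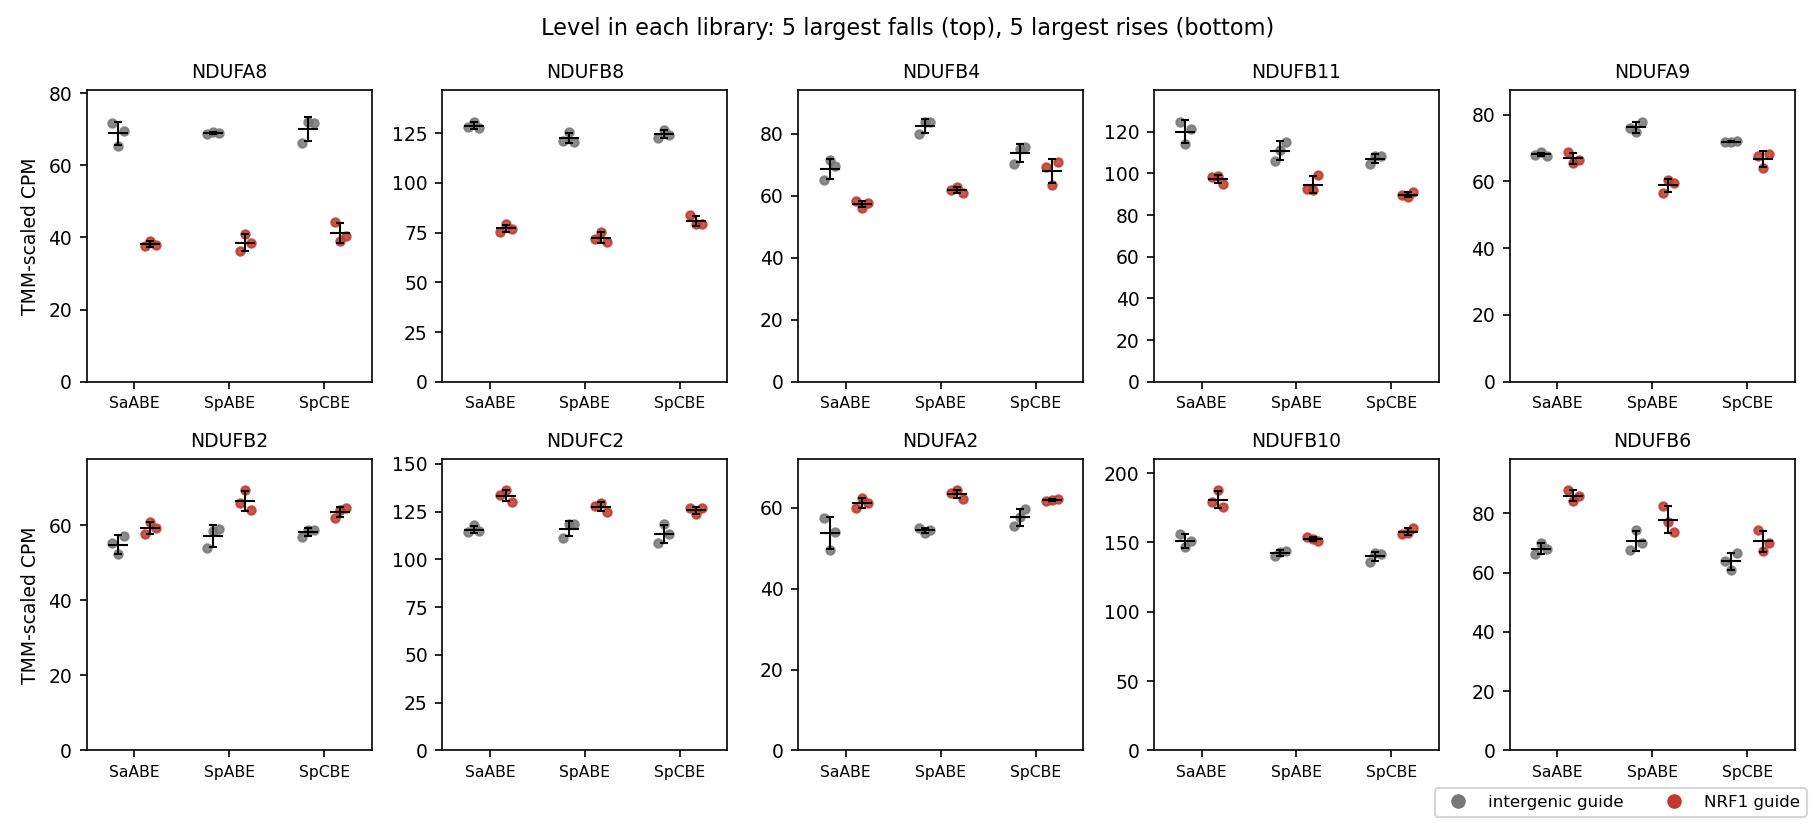
TMM-scaled CPM of the 5 subunits with the largest falls and the 5 with the largest rises in each library, by editor and guide, with group means and 1 SD. NDUFA8 and NDUFB8 separate the guides in all 3 editors by far more than the spread, while the guides overlap for NDUFA9 in SaABE, NDUFB4 in SpCBE and NDUFB6 in SpABE.

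The rises were smaller. NDUFB6, a distal membrane subunit, had the largest, with a lowest, median and highest level of 60.9, 67.6 and 74.3 CPM over the intergenic-guide libraries and 67.3, 77.2 and 87.7 CPM over the NRF1-guide libraries. Its log2 fold change was 0.20 (SE 0.03, adjusted p = 2e-05 by edgeR), and within SpABE the guides overlapped. NDUFB10, another intermembrane-space subunit held by disulfide bonds, had 136, 143 and 156 CPM against 151, 157 and 188 CPM, with a log2 fold change of 0.18 (SE 0.02, adjusted p = 8e-07 by edgeR). The guides of NDUFB10 overlapped across editors and not within any editor.

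NDUFA2, a thioredoxin-like subunit of the peripheral arm, had a lowest, median and highest level of 49.5, 55.0 and 59.7 CPM under the intergenic guide, against 60.0, 62.0 and 64.3 CPM under the NRF1 guide. NDUFC2, a subunit of the proximal membrane arm, had 109, 115 and 118 CPM and then 124, 128 and 136 CPM. In both, the lowest NRF1-guide library exceeded the highest intergenic-guide library. Their log2 fold changes were 0.17 (SE 0.03) and 0.16 (SE 0.02), with adjusted p = 1.3e-05 and 6.2e-07 by edgeR. For NDUFB2, of the distal membrane arm, the levels were 52.2, 57.1 and 59.0 CPM against 57.6, 64.1 and 69.3 CPM. NDUFB2 rose by 0.15 on the log2 scale (SE 0.03, adjusted p = 5.2e-05 by edgeR) and overlapped between guides across editors but not within one. NDUFC2 shares exon bases with a readthrough model, NDUFC2-KCTD14, and all its estimated counts were fractional.

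The changes can be followed through the complex. Of the 3 core subunits on the NADH side, NDUFV1, which binds NADH and the flavin, and NDUFV2, which holds an iron-sulfur cluster, rose with log2 fold changes of 0.09 and 0.14, and NDUFS1, which holds several clusters, did not pass at -0.02. All 3 core subunits of the quinone side rose: NDUFS3 by 0.08, NDUFS7, whose cluster passes electrons to the quinone, by 0.09, and NDUFS8 by 0.10. Over all 3 editors no core subunit among these 6 fell, while within SaABE alone NDUFS1 passed as lower, at -0.09 (SE 0.03, adjusted p = 0.018 by edgeR). With library totals in place of TMM, NDUFS7 and NDUFS8 no longer passed (adjusted p = 0.12 and 0.071 by edgeR).

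Among the 9 accessory subunits of the peripheral arm, 4 rose, 3 fell and 2 did not pass. NDUFA2, NDUFA7 at 0.11, NDUFS4 at 0.10 and NDUFA6 at 0.08, which binds an acyl carrier protein, were the higher ones. NDUFS4 no longer passed in 7 of 27 alternatives. Among them were fits without SaABE intergenic replicate 2 or 3, SaABE NRF1 replicate 3 or SpCBE intergenic replicate 2. Adjusted p there lay between 0.050 and 0.062 by edgeR, and was 0.055 with the replicate block. NDUFA9, NDUFV3 at -0.17 and NDUFS6 at -0.13, a zinc-binding subunit, were the lower ones. NDUFA12 and NDUFA5 had 0.07 and 0.06 and did not pass, although NDUFA12 passed as higher in 6 of 27 alternatives (lowest adjusted p = 0.042 by edgeR). NDUFAB1, the mitochondrial acyl carrier protein, which also serves fatty acid synthesis, rose by 0.14.

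In the proximal membrane arm, 4 of 9 rose, 2 fell and 3 did not pass. NDUFC2, NDUFA1 at 0.15, NDUFS5 at 0.12 and NDUFC1 at 0.11 were higher, and NDUFA8 and NDUFA11 at -0.15 were lower. NDUFA3, NDUFA13 and NDUFA10 had values between -0.02 and 0.04. In the distal membrane arm, 6 of 11 rose, 3 fell and 2 did not pass. Beside NDUFB6, NDUFB10 and NDUFB2, the higher ones were NDUFB5 at 0.13, NDUFB7 at 0.12 and NDUFB3 at 0.10, and NDUFB8, NDUFB4 and NDUFB11 were lower. NDUFB1 and NDUFB9 had 0.06 and 0.01. Members that fell and members that rose over all 3 editors were thus found in both arms.

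Summed over the 36 genes, the level hardly moved. The sum was 2817 ± 21.6 CPM for the SaABE intergenic group and 2889 ± 30.3 CPM for the SaABE NRF1 group (SD, n = 3 each). In SpABE it was 2858 ± 50.2 and 2771 ± 27.9 CPM, and in SpCBE 2743 ± 57.9 and 2786 ± 29.0 CPM. The NRF1-guide mean was above the intergenic mean in SaABE and SpCBE and below it in SpABE. The SaABE direction depended on the scaling. As a share of all counts, without TMM, the members took 0.280%, 0.273% and 0.275% in the SaABE intergenic libraries and 0.274%, 0.278% and 0.274% in the SaABE NRF1 libraries, which overlap and put the NRF1-guide mean slightly below. In such bulk RNA, fewer expressing cells and less RNA per cell cannot be told apart.

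Within single editors the fit used 6 group means over all 18 libraries. In SaABE, 17 members were higher, 7 lower and 12 did not pass (16.9% and 15.5% of all genes were higher and lower). Their median log2 fold change was 0.10, against 0.01 for all genes. In SpABE, 11 were higher, 10 lower and 15 did not pass (15.4% and 17.3% of all genes), with a median of 0.01 against -0.00 for all genes. In SpCBE, 15 were higher, 6 lower and 15 did not pass (11.0% and 12.0% of all genes), with a median of 0.10 against 0.01. NDUFA8 and NDUFB8 were the 2 members called lower in each editor, where 4.81%, 4.70% and 3.61% of all genes were called lower. No member was called higher in any editor, and 1.24%, 1.71% and 0.840% of all genes were. By sign, 19 members were positive in all 3 editors, 8 were negative in all 3 and 9 were mixed. Signs were not counted in this way over all genes, so these counts only describe the members.

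The counts of single editors rested on few libraries. The 11 higher members in SpABE became 6 without intergenic replicate 1, 7 without NRF1 replicate 1 and 7 without NRF1 replicate 2. The 15 higher members in SpCBE became 7 without intergenic replicate 1, 9 without NRF1 replicate 1, 9 without NRF1 replicate 2 and 8 without NRF1 replicate 3, and 8 with the replicate number as a block. The 6 lower ones in SpCBE became 3 without intergenic replicate 2 or without NRF1 replicate 2. Library totals in place of TMM gave 5 higher in SpABE and 8 in SpCBE.

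Whether the editors differed was tested directly, by an edgeR F test of the NRF1-guide effect on 2 degrees of freedom. It passed for 9 of the 36 members, or 25.0%, against 15.0% of all genes. No member's effects differed by over 0.5 between any pair of editors, as did those of 2.46% of all genes that also passed. The largest difference, 0.35, was that of NDUFV2. It had 57.9, 56.1 and 53.6 CPM against 69.9, 70.5 and 68.5 CPM in SaABE. In SpABE it had 55.0, 57.5 and 54.2 against 54.6, 53.5 and 55.2 CPM. SpCBE gave 49.1, 53.0 and 51.7 against 56.4, 55.8 and 56.9 CPM. NDUFV2 thus separated by guide in SaABE and SpCBE and overlapped in SpABE, with log2 fold changes of 0.32, 0.14 and -0.03 (adjusted p of the difference = 0.00018 by edgeR). Its pseudogene copy NDUFV2P1 had 2.07 CPM in the intergenic-guide libraries, and reads that match both cannot be told apart here.

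NDUFA9, like NDUFV2, was highest in SaABE and lowest in SpABE, with log2 fold changes of -0.03 in SaABE, -0.37 in SpABE and -0.11 in SpCBE (adjusted p = 4.3e-05 by edgeR). NDUFB4 had -0.26, -0.41 and -0.12 in SaABE, SpABE and SpCBE (adjusted p = 0.0033 by edgeR). NDUFB9, a distal membrane subunit of the same protein family as NDUFA6, had 139, 148 and 145 CPM against 154, 159 and 155 CPM in SaABE. It had 161, 166 and 170 against 154, 150 and 148 CPM in SpABE, and 155, 160 and 163 against 170, 160 and 164 CPM in SpCBE. This was the 1 member that passed as higher in one editor (0.12 in SaABE) and as lower in another (-0.13 in SpABE), with 0.05 in SpCBE (adjusted p of the difference = 0.00091 by edgeR). NDUFV2, NDUFA9, NDUFB4 and NDUFB9 passed under all 26 alternatives.

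The other 5 members that passed were NDUFS6, NDUFA11, NDUFA13, NDUFB1 and NDUFB10, with adjusted p between 0.021 and 0.048 by edgeR. In all 9 the SpABE log2 fold change was the lowest of the 3 editors, and these 9 values share the same 6 SpABE libraries. Without SpABE intergenic replicate 2, 4 members passed, and with the replicate number as a block 5 passed.

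**Figure D4:**
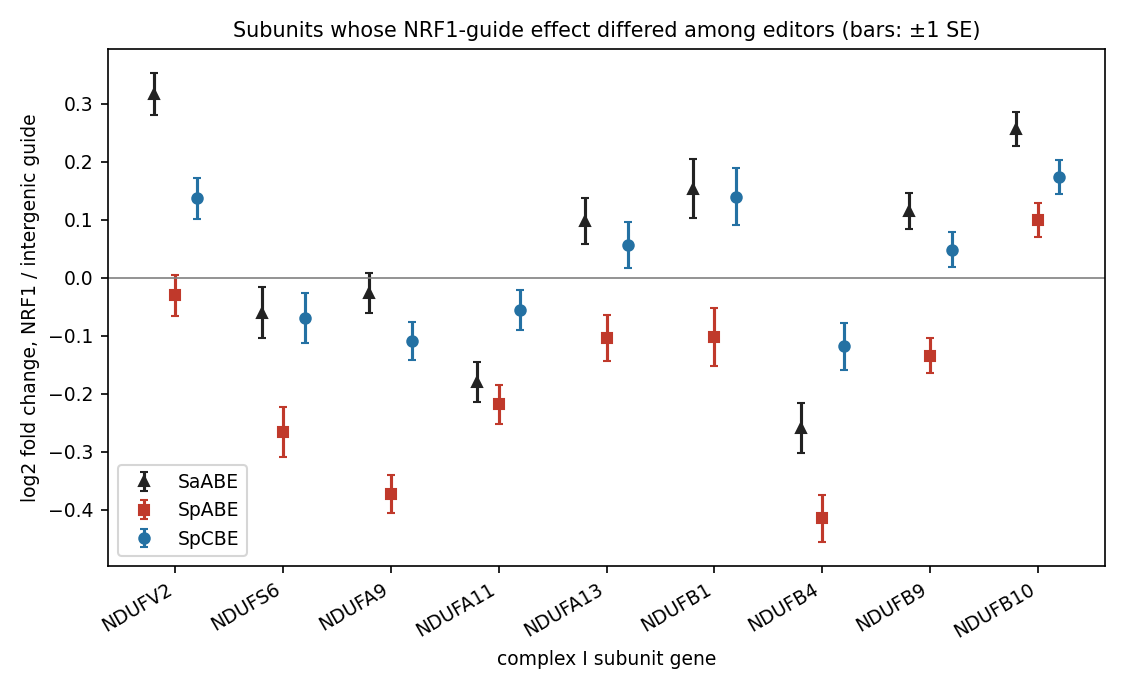
Log2 fold change, NRF1 guide over intergenic guide, in each editor for the 9 subunits whose effect differed among editors at an adjusted p under 0.05 by edgeR, with 1 SE. NDUFV2 ranges from -0.03 in SpABE to 0.32 in SaABE and NDUFA9 from -0.37 in SpABE to -0.03 in SaABE.

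The 3 editor groups also differed without the NRF1 guide, where each editor again had its own plasmid. Among the 3 intergenic-guide groups, 23 of the 36 members, or 63.9%, passed the same kind of F test, against 56.3% of all genes, and 0 members passed the fold threshold as well (13.0% of all genes did). NDUFA7, a peripheral arm subunit, differed the most at 0.36 on the log2 scale (adjusted p = 8e-06 by edgeR), and NDUFA8 differed by 0.02 (adjusted p = 0.88). The guide effects of NDUFB4, NDUFA9, NDUFV2 and NDUFB9 were taken against intergenic levels that differed between editors by 0.26, 0.16, 0.12 and 0.20, and the part of this in the differences above was not tested.

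The promoter words were set beside the changes. An exact match was present in 5 of the 32 members with a promoter, or 15.6%, and in 3.34% of the 27305 genes of the promoter table. With up to 1 mismatch it was 12 of 32, or 37.5%, against 14.0%. The promoter table also holds genes that were not tested here, while all 36 members were tested. Its shares are thus not those of tested genes, which are given by status below. Of the 8 members that fell, 3 held an exact match and 7 a match with up to 1 mismatch. Of the 17 members with a promoter that rose, 0 held an exact match and 2, NDUFS7 and NDUFA6, a match with 1 mismatch. Of the 7 that did not pass, 2 held an exact match and 3 a match with up to 1 mismatch. Over all tested genes with a promoter, 15.8% of lower, 3.51% of not passing and 2.87% of higher genes held an exact match, and 49.8%, 17.3% and 17.9% a match with up to 1 mismatch.

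Members with an exact match had a median log2 fold change of -0.15 (n = 5), those with 1 mismatch had -0.13 (n = 7) and those with none had 0.10 (n = 20). These medians are a description with no test. NDUFB11 fell with none of these letters in its window, and NDUFA12 and NDUFA3, whose runs are printed above, had an exact match and log2 fold changes of 0.07 and 0.04 (adjusted p = 0.072 and 0.32 by edgeR). A match is not shown to be a bound site.

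**Figure D5:**
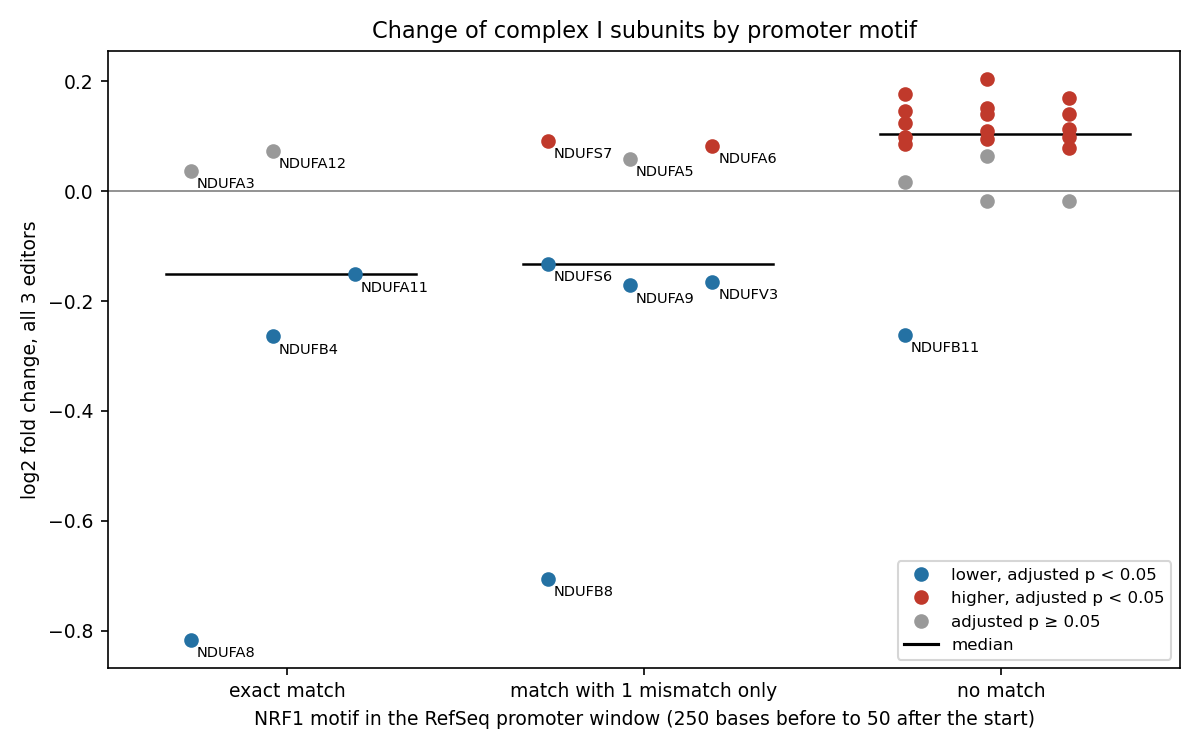
Log2 fold change over all 3 editors of the 32 subunits with a RefSeq promoter, by the best match of the NRF1 words, with group medians as lines. Of the 8 lower subunits, 7 are in the groups with an exact match or 1 mismatch, and NDUFB11 is the exception.

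Some of the members' neighbours moved with them and others did not. Of the 36, 20 had another gene starting within 1000 bases on the opposite strand. Where both genes of such a pair passed, IK beside NDUFA2, RPS28 beside NDUFA7, RNF113A beside NDUFA1 and MRPL47 beside NDUFB5 rose with the member. Their log2 fold changes were 0.10, 0.18, 0.09 and 0.16. AKAP3 fell with NDUFA9, at -1.14. The only such pair in opposite directions was NDUFS6 and MRPL36. NDUFS6 fell by 0.13 on the log2 scale, and MRPL36, which starts beside it, moved from 27.9 to 34.2 CPM with a log2 fold change of 0.29 (adjusted p = 2.4e-08 by edgeR). WDR4 beside NDUFV3 had -0.00 and RBM10 beside NDUFB11 had 0.03, and neither passed. Exon bases were shared with another gene in 20 members, and values of these rest on how reads were assigned, which is not given in the sources used here.

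The 19 assembly factors, which build the complex and are not part of it, were counted in the same way. Of these, 10 were higher, 2 lower and 7 did not pass, beside 20.6% and 18.8% of all genes, with a median log2 fold change of 0.08. TMEM70, a factor for complex I and ATP synthase assembly, was the 1 called (4.37% of all genes were called lower). It went from 36.1 ± 3.09 to 19.5 ± 2.06 CPM (SD over 9 libraries of each guide). Its log2 fold change was -0.88 (SE 0.03, adjusted p = 1.6e-17 by edgeR), with -0.94, -0.83 and -0.89 in SaABE, SpABE and SpCBE. The other lower factor was NDUFAF5 at -0.14.

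Of the 7 subunits encoded in the mitochondrial genome, 0 were higher and 2 lower over all 3 editors, beside 20.6% and 18.8% of all genes. None was called, where 1.13% of all genes were called higher and 4.37% lower. The 2 lower ones were MT-ND6 at -0.31 (SE 0.07, adjusted p = 0.0013 by edgeR) and MT-ND5 at -0.14 (SE 0.04, adjusted p = 0.006 by edgeR). SaABE had 0 higher and 2 lower (16.9% and 15.5% of all genes). SpABE had 4 higher and 0 lower (15.4% and 17.3%), and SpCBE had 0 higher and 4 lower (11.0% and 12.0%).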

How the data were processed

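A stranded mRNA kit was used for the libraries. Reads were trimmed with Cutadapt 1.18 and mapped by the authors to hg38 with GENCODE 30 using STAR 2.7.0f, and DESeq2 1.46.0 is also listed in the submitters' processing notes. How reads were counted per gene (program, strand, multiple matches) is not given in the sources used here. The authors deposited estimated counts per gene without normalization. Of the nonzero estimated counts, 19.6% were not whole, and all were rounded before testing. The table has 36 sample columns, of which 18 were analysed and 18 were not used.

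Genes were kept with filterByExpr, scaled by TMM and tested by edgeR 4.0.16 quasi-likelihood tests under R 4.3.3, with Benjamini-Hochberg adjustment over 17743 genes. A gene passed at an adjusted p under 0.05 and was called with an absolute log2 fold change over 0.5. The comparison over all 3 editors had the editor as an additive term. Effects within editors and differences between editors came from 6 group means, with a biological coefficient of variation of 3.10%. The alternatives were DESeq2 1.42.0, other scalings and filters, unrounded values, a replicate block, no editor term and leaving out each library. The test scripts were first tested on simulated data. Gene positions came from GENCODE 44 on hg38.

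The members and lists were chosen with earlier results of these data known. Values in every library were given for called members and for the 5 largest rises and 5 largest falls that passed. No label ties replicates to separate cultures, and the spread behind the p-values may thus be technical. All pairs of libraries in a group differed by more than sampling noise.

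Whether replicate numbers pair libraries was checked by correlating how same-numbered libraries of both guides deviate from their group means. As first computed, by Pearson over 10023 genes with a mean of at least 10 CPM, the SaABE correlations were -0.35, -0.29 and 0.03, those of SpABE were -0.02, 0.02 and 0.17, and those of SpCBE were -0.12, -0.16 and 0.12, which does not meet a rule of all 3 over 0.1. After these values were seen, 10 measures were tried in all, Pearson and Spearman at 5 CPM limits. In SpABE 6 of the 10 met the rule, and in SaABE and SpCBE 0 did. The pairing was therefore treated as not shown, and it depends on the measure in SpABE.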

Additional observations from a re-analysis of the deposited data

Results flagged for a closer look

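The effect of the NRF1 guide differed among the 3 editors for 9 of the 36 subunits, by an edgeR F test on 2 degrees of freedom with adjustment over all genes tested. Each editor came with its own plasmid and guide, so editor, guide and extent of skipping cannot be told apart here. The largest difference between a pair of editors was 0.35 on the log2 scale for NDUFV2 (0.3477) and for NDUFA9 (0.3468), with adjusted p = 0.00018 and 4.3e-05 by edgeR. It was 0.2968 for NDUFB4 (adjusted p = 0.0033), 0.255 for NDUFB1 (adjusted p = 0.021) and 0.2493 for NDUFB9 (adjusted p = 0.00091). NDUFS6 and NDUFA13 had 0.2059 and 0.2016 (adjusted p = 0.031 and 0.028). NDUFA11 and NDUFB10 had 0.1617 and 0.158 (adjusted p = 0.048 and 0.031). NDUFB1 had log2 fold changes of 0.15, -0.10 and 0.14 in SaABE, SpABE and SpCBE, and NDUFA13 had 0.10, -0.10 and 0.06. NDUFS6 had -0.06, -0.27 and -0.07, and NDUFB10 had 0.26, 0.10 and 0.17. Under the 26 alternatives, NDUFB1 passed in 22, NDUFA13 in 17, NDUFS6 in 16 and NDUFA11 and NDUFB10 in 11 each. Single libraries far from the rest of their group were not searched for, since groups of 3 are too small.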

How the results depend on the processing

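Over all 3 editors, 20 to 21 members were higher and 8 lower without any 1 library, and NDUFA8 and NDUFB8 stayed the 2 called. Without the editor term 12 were higher, and NDUFS6 was no longer lower (adjusted p = 0.064). NDUFA5 passed as higher without SaABE intergenic replicate 2 (adjusted p = 0.044), NDUFB1 without SpABE NRF1 replicate 1 (adjusted p = 0.041) and NDUFA12 with DESeq2, upper-quartile scaling or no filter, or without SaABE intergenic replicate 3, SaABE NRF1 replicate 3 or SpCBE intergenic replicate 2 (adjusted p between 0.042 and 0.050). Within editors, leaving out 1 library gave 6 to 12 higher in SpABE, 7 to 18 higher and 3 to 6 lower in SpCBE, and 4 to 10 members whose effect differed among editors. Library totals gave 5 higher in SpABE and 8 in SpCBE. With the replicate block, whose pairing is not shown by the data as first checked, 8 were higher in SpCBE and 5 differed among editors, and no other count moved by over 1.5 times. NDUFA13 and NDUFB9, which never passed over all 3 editors, changed sign with library totals (-0.0101 and -0.0176), and NDUFB9 also without SaABE intergenic replicate 1 (-0.006) and without SaABE NRF1 replicate 2 (-0.002), with 0.0256 at the other end of its leave-one-out range. The cause was not tested. Allowing 1 mismatch moved the promoters with a match from 5 to 12. Across scalings the median log2 fold change ran from -0.01 to 0.02 over all genes and from 0.06 to 0.09 over the members, an alternative added after seeing the data. Depth was at least 724 counts for every member in every library, and the unknown read assignment limits members that share exons.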
